A study of Mus musculus with 4 samples.

Results

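The interaction of hypertension and stroke was examined in a coronal section of mouse forebrain that included the prefrontal cortex. It is the difference between 2 differences, (HT + Stroke minus HT + Sham) minus (NT + Stroke minus NT + Sham), on the log2 scale. A value of 0 means that stroke changed a gene by the same factor in hypertensive (HT) and normotensive (NT) mice, a negative value means that the stroke effect was lower in HT mice, and a positive value that it was higher. All genes with enough reads entered, 17608 of the 33981 genes in the deposited tables. There were 6 libraries in each of 4 groups (NT + Sham, HT + Sham, NT + Stroke, HT + Stroke), and each library was treated as 1 mouse. All were male C57BL/6J mice aged 3 to 5 months. Hypertension was induced in HT mice with angiotensin II (28 days, 0.28 mg/kg/day), while NT mice were given saline. Sham surgery or photothrombotic stroke, in which Rose Bengal dye is activated by light through the skull, followed on day 7, and tissue was taken on day 28. Hypertension was produced with angiotensin II alone, so that raised blood pressure and other actions of the peptide cannot be told apart.

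Angiotensin II constricts vessels and raises blood pressure through the kidney, the adrenal gland and the brain, and in the brain it is known to affect endothelial cells, perivascular macrophages and microglia. A cortical infarct loses neurons within days, and over the following weeks macrophages clear myelin and debris, astrocytes express intermediate filaments such as Gfap and form a border, and fibroblasts lay down collagen in the core. The lists of genes used here follow these roles, with further lists for neurons of cortex and of the neighbouring striatum and olfactory bulb. In tissue RNA, fewer cells of a type and less RNA per cell cannot be told apart.

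Libraries held 15922919 to 24865998 counts (median 18497215). Expression is given in CPM, a gene's counts set to a common library total after TMM scaling. Several libraries stood apart in stroke-responsive genes. C3, the central component of complement, was at 0.0504 to 0.405 CPM in NT + Sham and at 22.4 to 77.5 CPM in NT + Stroke. In HT + Sham it was at 0.0593 to 1.73 CPM in mice 1 to 5, and at 10.5 CPM in mouse 6. In HT + Stroke it was at 30.2 to 123.2 CPM in mice 2 to 5, and at 2.90 and 3.45 CPM in mice 1 and 6. Gfap, the main intermediate filament of reactive astrocytes, followed the same order. It was at 163 to 242 CPM in HT + Sham mice 1 to 5 against 550.2 CPM in mouse 6, and at 920 to 1346 CPM in HT + Stroke mice 2 to 5 against 249 and 231 CPM in mice 1 and 6. HT + Sham mouse 6 was thus above its group and HT + Stroke mice 1 and 6 were close to sham levels. Several counts, the slope and all lists of genes but that of interneurons are given below with and without these 3 mice. The 3 mice were chosen by these levels, after the data were seen, so that values without them are descriptions. Leaving them out raises the HT stroke effect of such genes by the choice itself, and no NT mouse was left out with them.

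**Figure D1:**
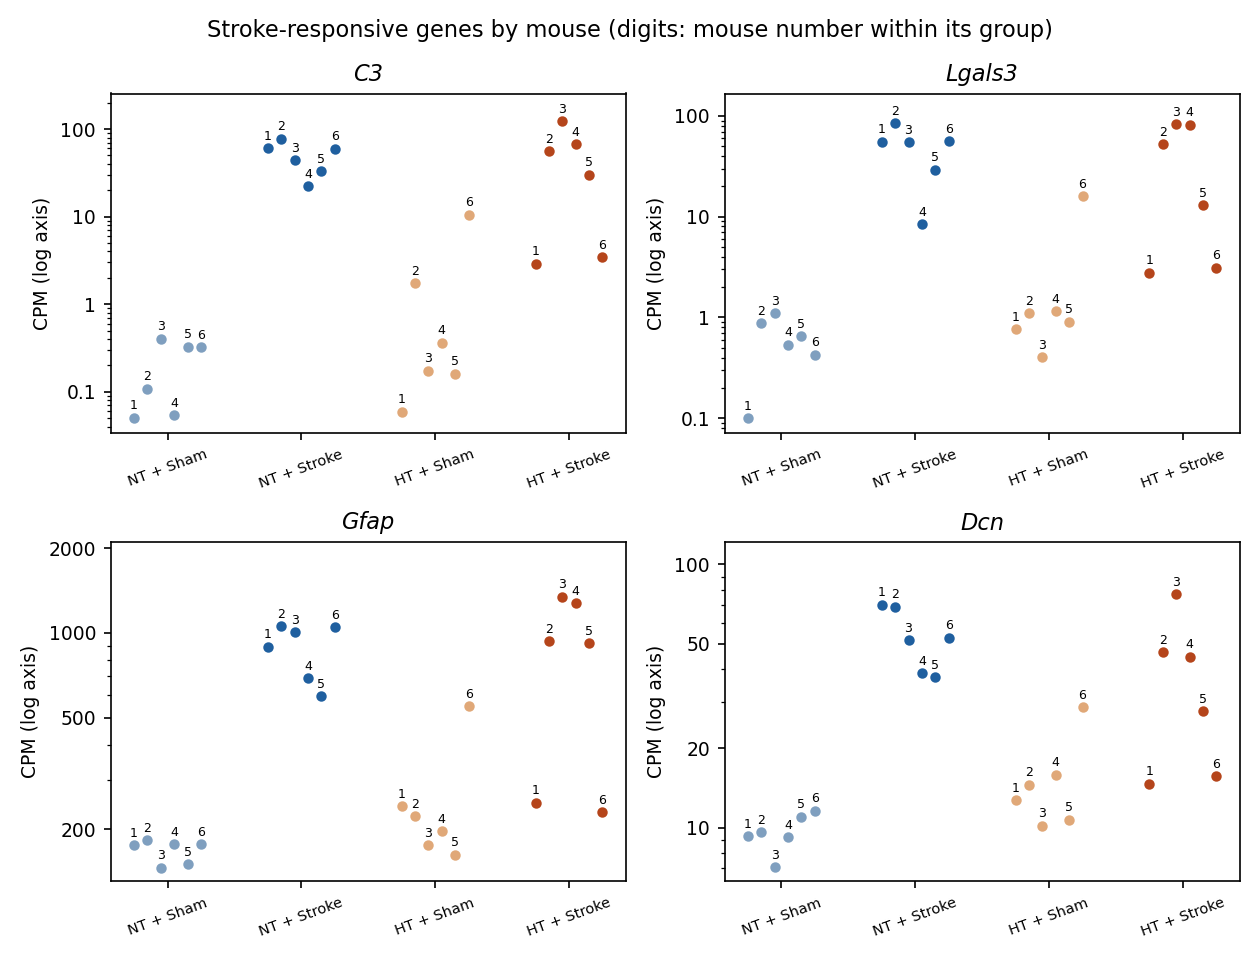
CPM (log axis) of C3, of Lgals3 (galectin-3 of phagocytes), of Gfap and of Dcn (decorin of fibroblasts) in each of 24 mice, with mouse numbers beside the points. HT + Sham mouse 6 lies above the other HT + Sham mice and HT + Stroke mice 1 and 6 lie below the other HT + Stroke mice in all 4 panels.

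Markers of neighbouring regions also moved with the groups, in the pattern of the interaction itself. The summed level of 8 genes of olfactory bulb neurons had a median of 138 CPM in NT + Sham (79.6 to 178), 294 CPM in NT + Stroke (126 to 489.5), 293 CPM in HT + Sham (132 to 589.7) and 124 CPM in HT + Stroke (46.1 to 365). HT + Sham mouse 6 had the highest level of all 24 mice. The summed level of 12 genes of striatal neurons had medians of 1414, 2319, 1201 and 2693 CPM in the same order of groups, with HT + Sham mouse 6 lowest of all mice at 584 CPM. The part of the region markers in the results was not tested beyond fits that hold them constant, given beside the counts. The olfactory bulb score in those fits is the mean log2 CPM of the 8 genes in each mouse, and the fit with this score alone was chosen after the data were seen.

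**Figure D2:**
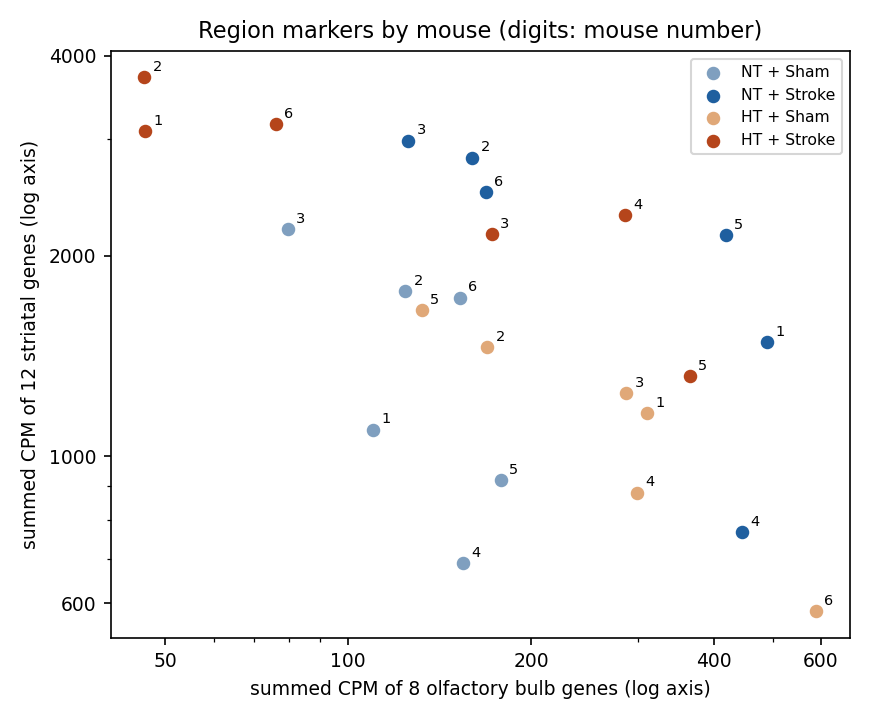
Summed CPM of 8 olfactory bulb genes (horizontal, log axis) against that of 12 striatal genes (vertical, log axis) in each mouse, with mouse numbers beside the points. HT + Stroke mice 1, 2 and 6 have the lowest olfactory bulb levels (46.1 to 75.9 CPM), and HT + Sham mouse 6 has the highest (589.7 CPM) with the lowest striatal level.

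No gene passed the threshold for the interaction. At an adjusted P under 0.05 the quasi-likelihood test of edgeR called 0 of 17608 genes (0%), and the smallest adjusted P was 0.262. At an unadjusted P under 0.05 there were 1836 genes (10.4%), against the 880 (5%) that the threshold lets through when no gene differs. Of these, 800 were positive (4.54% of the genes tested) and 1036 negative (5.88%). Without scaling of the libraries beyond their totals the share of positive genes among them changed from 43.57% to 20.55%. DESeq2, with its own size factors and filter, called 22 genes at an adjusted P under 0.05, of which the smallest adjusted P was 0.0367. limma called 0 genes on FPKM and 0 with weighted libraries. The count at an unadjusted P under 0.05 varied with the libraries and covariates used. The count was 1220 without HT + Sham mouse 6 and 1298 (7.3%) without NT + Stroke mouse 1. It was 688 (3.83%) without HT + Sham mouse 6 and HT + Stroke mice 1 and 6. With the olfactory bulb score held constant it was 363 (2.06%), and these last 2 shares lie under 5%. Without HT + Stroke mouse 3, the mouse with the highest C3, it was 3139 (17.7%). The olfactory bulb genes themselves had negative interactions, so holding their score constant can also remove part of the contrast. Why the count fell was not tested. Read the other way, hypertension changed 0 genes in sham mice (0%) and 0 in stroke mice (0%) at an adjusted P under 0.05 by edgeR, DESeq2 and limma, with 1220 (6.93%) and 1505 genes (8.55%) at an unadjusted P under 0.05 by edgeR.

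Stroke changed more genes in NT than in HT mice, and the genes changed in the same directions. In NT mice 3774 genes (21.4%) passed an adjusted P under 0.05, 2128 of them higher (12.1%) and 1646 lower (9.35%) after stroke. In HT mice 1125 genes (6.39%) passed, 839 higher (4.76%) and 286 lower (1.62%). The 2 effects share no library. A total of 814 genes passed in both, which is 21.57% of those called in NT mice and 72.36% of those called in HT mice, and all 814 changed in the same direction. Of the genes called in NT mice, 3404 (90.2%) had the same sign in HT mice, against 66.71% of all genes. The gap between the counts is not a test of the difference, for which the interaction above is the test. The count in HT mice was also the less stable one. It was between 338 and 666 without HT + Sham mouse 3, 4 or 5 or without HT + Stroke mouse 2, 3 or 4, at most 1635 with 1 library left out (HT + Stroke mouse 1), and 2545 without HT + Sham mouse 6 and HT + Stroke mice 1 and 6, when the count in NT mice was 4053.

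The size of the stroke effect was compared over the 4541 genes (25.8%) called for the average of the 2 stroke effects. This contrast is orthogonal to the interaction and favours neither sign of it where the 2 stroke effects have equal SE. Where the error is larger in NT mice, a high average favours a negative interaction, and where it is larger in HT mice, a positive one. Each gene's SE rests on an estimate of spread that all 4 groups share. The fitted SE of C3 below is larger in NT mice, where NT + Sham held few reads (1 to 7). Its counts spread more in HT mice (1 to 210 in HT + Sham, 51 to 2736 in HT + Stroke) than in NT + Stroke (559 to 1514). Which sign the choice favours for C3 was thus not determined. The slope of the HT on the NT effect over the 4541 genes was 0.70, with a correlation across genes of r = 0.877 (genes are not independent replicates, and no P is given). A slope of 1 would mean equal effects. Among the 2498 genes that were higher after stroke, the median log2 fold change was 0.68 in NT and 0.49 in HT mice, and 1865 of them (74.66%) had a negative interaction. Among the 2043 that were lower, it was -0.26 in NT and -0.17 in HT mice, and 1550 (75.87%) had a positive interaction. Among the other 13067 genes 48.47% were negative. In both directions the median in HT mice was nearer to 0. The slope ranged from 0.59 to 0.86 with 1 library left out (jackknife SE 0.24), so that a slope of 1 lay within 2 SE. Without HT + Sham mouse 6 it was 0.86, and without HT + Sham mouse 6 and HT + Stroke mice 1 and 6 it was 1.04, with 47.53% of the genes that were higher after stroke having a negative interaction.

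**Figure D3:**
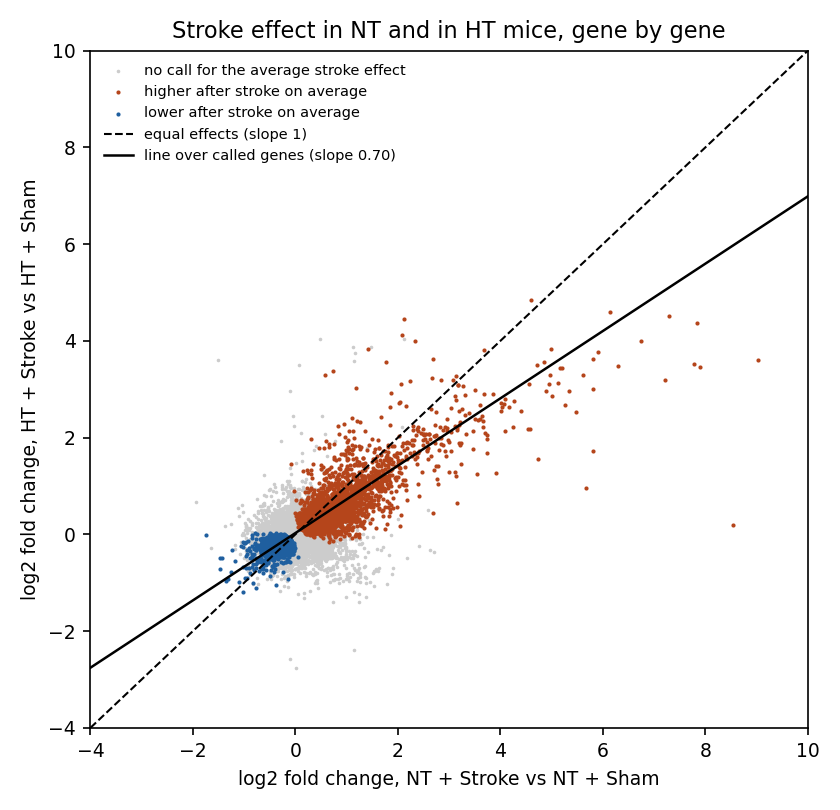
Log2 fold change of each of 17608 genes after stroke in NT mice (horizontal) and in HT mice (vertical). Genes called for the average stroke effect are in red (2498 higher) and blue (2043 lower), the dashed line marks equal effects and the solid line has the slope of 0.70 over called genes.

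The 6 genes with the largest average stroke effect are products of macrophages, fibroblasts and reactive astrocytes, and each had a negative interaction with a wide error. C3 had a log2 fold change of 7.84 (SE 1.24) in NT mice, adjusted P = 0.000469, and of 4.36 (SE 0.89) in HT mice, adjusted P = 0.0106. Its interaction was -3.47 (SE 1.80), with a 95% interval from -7.22 to 0.28 and an adjusted P of 0.513. Without HT + Sham mouse 6 the interaction of C3 was -1.24, and without HT + Stroke mice 1 and 6 as well it was -0.69. Cd5l, a protein secreted by macrophages, was at 0 to 0.381 CPM in NT + Sham and at 2.73 to 71.0 CPM (median 39.5) in NT + Stroke. In HT + Sham Cd5l was at 0 to 0.370 CPM in mice 1 to 5 and at 13.8 CPM in mouse 6, and in HT + Stroke it ran from 0.399 to 87.3 CPM (median 17.0). The stroke groups overlapped each other, and so did HT + Sham and HT + Stroke. Its interaction was -5.42 (SE 2.75), adjusted P = 0.504.

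Mmp12 (macrophage elastase), Mmp3 (stromelysin, which degrades matrix) and Atp6v0d2 (a subunit of the proton pump of osteoclasts and macrophages) had at most 0.218 CPM in any NT + Sham mouse. Their medians in NT + Stroke were 14.1 CPM for Mmp12, 10.8 CPM for Mmp3 and 11.1 CPM for Atp6v0d2. In HT + Stroke the medians were 4.07, 6.60 and 5.22 CPM, and the lowest mice were at 0.171, 0.0639 and 0.285 CPM, near sham. Because the NT + Sham libraries hold few or no reads of Cd5l, Mmp12, Mmp3 and Atp6v0d2, their fitted fold changes depend on the prior count of the fit and are not bounds. The interactions were -4.44 (SE 2.24) for Mmp12, -2.77 (SE 2.27) for Mmp3 and -4.27 (SE 2.27) for Atp6v0d2, with adjusted P of 0.499, 0.684 and 0.521. The interaction of Atp6v0d2 was 0.88 when HT + Sham mouse 6 was left out, so its sign rests on that mouse. Lcn2, a lipocalin of reactive astrocytes, had medians of 0.461 CPM in NT + Sham, 46.9 CPM in NT + Stroke, 0.864 CPM in HT + Sham and 52.1 CPM in HT + Stroke. The median of Lcn2 was thus higher in HT + Stroke than in NT + Stroke, while its fitted interaction was -1.53 (SE 1.49, adjusted P = 0.735) and was 0.01 without HT + Sham mouse 6.

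The 6 genes with the largest fall after stroke had interactions between 0.07 and 0.62, that is, smaller falls in HT mice, and all but one had an interval that held 0. Grp, which encodes gastrin-releasing peptide, had a median of 8.70 CPM in NT + Sham and 3.96 CPM in NT + Stroke without overlap, and 8.24 and 4.05 CPM in HT + Sham and HT + Stroke with overlap. HT + Sham mouse 6 was lowest of its group for Grp at 3.36 CPM. The interaction of Grp was 0.48 (SE 0.35), adjusted P = 0.643. The receptor gene Nmbr, for neuromedin B, had an interaction of 0.07 (SE 0.38), and C1ql3, a secreted C1q-like protein of synapses, had 0.09 (SE 0.31). Both changed sign in some of the fits with 1 library left out. Tmem232, a membrane protein gene, had 0.35 (SE 0.33) and the long noncoding C730002L08Rik had 0.26 (SE 0.21). AI115009, with no known function, was the exception, with 0.62 (SE 0.28), a 95% interval from 0.05 to 1.2015 and an adjusted P of 0.454. It was at 1.198 to 1.698 CPM in NT + Stroke, below every NT + Sham mouse (2.37 to 4.24 CPM), while HT + Stroke (1.41 to 2.81 CPM) overlapped HT + Sham (1.63 to 3.99 CPM).

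The genes with the smallest P for the interaction were not those with large stroke effects. The 8 positive ones with an average log2 CPM above 1 each had a negative log2 stroke effect in NT mice (6 of them at an adjusted P under 0.05), and 6 of 8 had a positive one in HT mice (2 at an adjusted P under 0.05). Picking genes by the interaction favours opposite signs of the stroke effects, so these counts describe the choice. A positive interaction also favours high levels in NT + Sham and HT + Stroke and low levels in the other groups. Where groups do not overlap for these 8 genes, that is thus partly set by the choice. Plxdc1, a membrane protein known from tumour endothelium, had the smallest P of all genes. It lies on the minus strand of chromosome 11 (GRCm38 chr11:97923238-97986444). In NT + Sham it was at 40.0 to 45.9 CPM (median 43.3), in NT + Stroke at 30.8 to 43.6 CPM (38.0), in HT + Sham at 34.7 to 40.8 CPM (38.3) and in HT + Stroke at 42.6 to 50.5 CPM (47.7). All HT + Stroke mice were above all HT + Sham mice, while the NT groups overlapped. The interaction of Plxdc1 was 0.50 (SE 0.11), with a 95% interval from 0.28 to 0.73 and an adjusted P of 0.262.

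Vamp1, a SNARE protein of synaptic vesicles (chr6:125215551-125245964), was at 136 to 162 CPM in NT + Sham (median 145.5) and 115 to 143 CPM (125) in NT + Stroke. It was at 113 to 135.5 CPM (126) in HT + Sham, below every NT + Sham mouse, and at 133 to 155 CPM (144) in HT + Stroke. Its interaction was 0.40 (SE 0.09), adjusted P = 0.262. Coch, which encodes the secreted matrix protein cochlin (chr12:51593341-51605771), was at 22.8 to 28.0 CPM in NT + Sham (median 25.6), 20.7 to 27.1 CPM (23.1) in NT + Stroke, 19.9 to 22.8 CPM (20.5) in HT + Sham and 22.0 to 30.1 CPM (24.7) in HT + Stroke. For Coch, too, the sham groups did not overlap, although HT + Sham mouse 6 (22.81 CPM) came close to the lowest NT + Sham mouse (22.84 CPM). Its interaction was 0.42 (SE 0.11), adjusted P = 0.318. The difference between the sham groups passed an adjusted P under 0.05 by edgeR for 0 of 17608 genes. Btbd8, a BTB domain protein, had medians of 75.8, 56.5, 64.6 and 59.4 CPM in NT + Sham, NT + Stroke, then HT + Sham and HT + Stroke, and an interaction of 0.44 (SE 0.12).

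Kcnk4, the TRAAK potassium channel, had medians of 16.96, 11.04, 14.74 and 13.96 CPM in the same order of groups and an interaction of 0.52 (SE 0.14). Every NT + Stroke mouse was below every NT + Sham mouse for Kcnk4, and the HT groups overlapped. Krt80, a keratin gene, had an interaction of 0.81 (SE 0.19), and Gm26881, an antisense RNA gene at 1.74 to 5.20 CPM, had 1.09 (SE 0.25). The highest value of Gm26881 was in 1 NT + Sham mouse, mouse 3, at 5.20 CPM, and reads of an antisense gene may not be told apart from those of the gene on the other strand. DESeq2 called Plxdc1, Vamp1, Krt80 and Gm26881.

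The 8 negative genes each had a positive log2 stroke effect in NT mice (6 at an adjusted P under 0.05) and a negative one in HT mice (2 at an adjusted P under 0.05), and DESeq2 called the interaction of all 8. Here, too, the choice by the interaction favours such signs, and the counts are no separate result. Syt6, a synaptotagmin (chr3:103575231-103645569), was at 27.7 to 36.1 CPM in NT + Sham (median 33.3) and 42.7 to 63.6 CPM (46.6) in NT + Stroke, without overlap. In HT + Sham it was at 34.5 to 61.9 CPM (39.7), with mouse 6 highest, and in HT + Stroke at 35.8 to 49.1 CPM (37.8). The interaction of Syt6 was -0.82 (SE 0.18), with a 95% interval from -1.19 to -0.45 and an adjusted P of 0.262. Ctbp2, a transcriptional corepressor, had medians of 8.19, 11.5, 11.1 and 8.51 CPM in NT + Sham, NT + Stroke, then HT + Sham and HT + Stroke, and an interaction of -0.87 (SE 0.19). Slco5a1, of the organic anion transporter family, had medians of 4.33, 7.58, 7.19 and 5.26 CPM and an interaction of -1.36 (SE 0.31). Rerg, a small GTPase of the Ras superfamily (chr6:137054825-137170497), was at 6.18 to 7.20 CPM in NT + Sham and 9.79 to 14.8 CPM in NT + Stroke, without overlap, at 5.93 to 14.2 CPM in HT + Sham and at 7.49 to 11.9 CPM in HT + Stroke. Its interaction was -0.97 (SE 0.22).

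Rassf8, of the Ras association domain family, had an interaction of -0.89 (SE 0.20), and Cited2, a regulator of CBP/p300-dependent transcription, had -0.72 (SE 0.17). Abl2, a cytoplasmic tyrosine kinase, was at 43.5 to 59.2 CPM in HT + Sham and lower in every HT + Stroke mouse (34.5 to 43.2 CPM), with an interaction of -0.56 (SE 0.13). Srsf10, a splicing factor (chr4:135855747-135869908), had the smallest effect and the smallest error of the 8, with medians of 51.7, 56.5, 56.9 and 47.7 CPM in NT + Sham, NT + Stroke, then HT + Sham and HT + Stroke and an interaction of -0.35 (SE 0.08). All 8 had an adjusted P of 0.262. The 8 were picked by a negative interaction, which favours high levels in NT + Stroke and HT + Sham and low levels in the other groups. The olfactory bulb markers above had the same pattern, and a link was not tested. With the olfactory bulb score held constant the interactions were -0.42 for Syt6, -0.42 for Ctbp2, -0.52 for Slco5a1, -0.54 for Rerg, -0.28 for Rassf8, -0.26 for Cited2, -0.27 for Abl2 and -0.25 for Srsf10. Those of the positive genes were 0.29 for Plxdc1, 0.23 for Vamp1, 0.33 for Coch, 0.19 for Btbd8, 0.36 for Kcnk4, 0.47 for Krt80 and 0.86 for Gm26881. These 15 kept their sign, and the smallest adjusted P over all genes in that fit was 0.9998. Without HT + Sham mouse 6 and HT + Stroke mice 1 and 6 they were -0.68 for Syt6, -0.85 for Rerg, -0.36 for Srsf10, 0.44 for Plxdc1, 0.33 for Vamp1 and 0.42 for Coch.

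**Figure D4:**
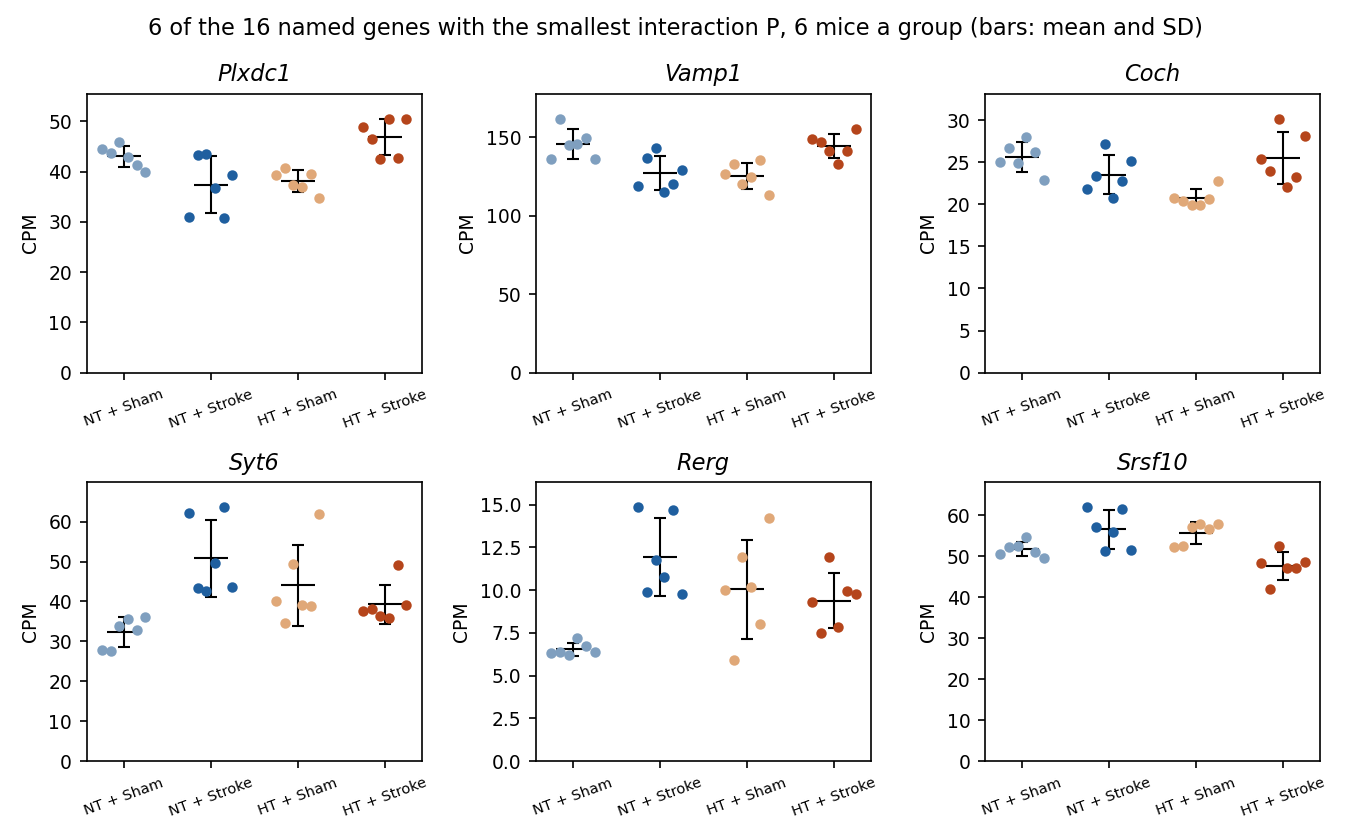
CPM in each mouse for 3 genes with a positive interaction (Plxdc1, Vamp1, Coch) and 3 with a negative one (Syt6, Rerg, Srsf10). Points are mice and bars the mean with SD of 6 mice. Plxdc1 separates HT + Sham from HT + Stroke, and Syt6 and Rerg separate NT + Sham from NT + Stroke.

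Groups of genes are described by counts of signs and medians, beside a median of 0.00 over all genes tested. Counts of members called after stroke stand beside 12.1% of all genes higher and 9.35% lower in NT mice, and 4.76% higher and 1.62% lower in HT mice, and counts at an unadjusted P under 0.05 for the interaction beside 4.54% positive and 5.88% negative. No member of any list had an adjusted P under 0.05 for the interaction. Of the 15 genes of disease-associated microglia, a state in which microglia take up lipid and debris, 15 rose after stroke in NT mice and 14 in HT mice. All 15 had a negative interaction, with a median of -0.35, and 0 had an unadjusted P under 0.05. Lgals3 had the smallest P of them, with medians of 0.596, 55.4, 1.01 and 32.6 CPM in NT + Sham, NT + Stroke, then HT + Sham and HT + Stroke and an interaction of -2.82 (SE 1.52, adjusted P = 0.525). Without HT + Sham mouse 6 and HT + Stroke mice 1 and 6 that of Lgals3 was -0.25, and 10 of 15 genes of disease-associated microglia were positive with a median of 0.11. Among the 11 genes of homeostatic microglia, 8 rose in NT and 4 in HT mice, and 10 of 11 were negative with a median of -0.09. Without the same 3 mice 8 of 11 were positive with a median of 0.10. Their gene with the smallest P was Sall1, a transcription factor, at -1.30 (SE 0.39, adjusted P = 0.320), which was the lowest of that list. Sall1 was highest in NT + Stroke mice 1, 4 and 5 (39.7 to 54.3 CPM against 22.3 to 29.1 CPM in mice 2, 3 and 6) and in HT + Sham mouse 6 (53.7 CPM), and its interaction was -0.14 with the olfactory bulb score held constant and -0.88 without the 3 mice.

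The 11 tested genes of border and infiltrating macrophages all had negative interactions, with a median of -0.76. Of these, 9 rose after stroke in NT mice and 1 in HT mice. Mrc1, the mannose receptor of perivascular macrophages, was at 2.51 to 4.03 CPM in NT + Sham and at 5.15 to 8.73 CPM in NT + Stroke, without overlap. In HT + Sham it was at 3.09 to 6.87 CPM and in HT + Stroke at 2.79 to 8.47 CPM. The interaction of Mrc1 was -0.73 (SE 0.33, adjusted P = 0.454). The list of border and infiltrating macrophages had 10 of 11 genes negative and a median of -0.22 without HT + Sham mouse 6 and HT + Stroke mice 1 and 6. Of 11 complement genes 10 were negative (median -0.44). Of 17 genes for chemokines and their receptors 16 were negative (median -0.44), with Cxcr4, the receptor of Cxcl12, at -1.03 (SE 0.49). The 6 tested genes of NADPH oxidase, which makes superoxide in phagocytes, were all negative (median -0.35), and all 6 rose after stroke in NT and in HT mice. Cybb, its catalytic subunit, had -1.32 (SE 0.94). Without the same 3 mice the medians were 0.21 for complement, 0.09 for chemokines and their receptors and 0.15 for NADPH oxidase.

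Of 16 genes of the interferon response, 15 rose after stroke in NT mice and 9 in HT mice, and 14 had a negative interaction (median -0.43). Ifit2, an interferon-induced inhibitor of translation, had -0.61 (SE 0.24, adjusted P = 0.387). The summed interferon response was 90.0 CPM in HT + Sham mouse 6 against 51.9 to 68.5 CPM in the rest of its group, and 62.1 and 68.5 CPM in HT + Stroke mice 1 and 6 against 94.4 to 155 CPM. Without the 3 mice 8 of 16 genes of the interferon response were negative, with a median of 0.07. For antigen presentation, 10 of 12 genes rose in NT mice and 11 in HT mice, and 11 were negative (median -0.35). The exception was H2-DMa, which helps load peptides on MHC class II, at 0.36 (SE 0.15, adjusted P = 0.428). The summed level for antigen presentation was 540.1 CPM in HT + Sham mouse 6 against 250.2 to 341 CPM, and 317 and 361 CPM in HT + Stroke mice 1 and 6 against 532 to 1242 CPM. Without the 3 mice 11 of 12 genes for antigen presentation were positive, with a median of 0.20. The medians of both lists thus changed sign without these mice, which were chosen by their levels of stroke-responsive genes. Of 10 lymphocyte genes tested 4 were positive and 6 negative (8 and 2 without the 3 mice), with Cd3g, a subunit of the T cell receptor complex, at -0.99 (SE 0.56). Only 3 of 8 neutrophil genes passed the filter, among them the granule protein gene Ngp at -2.06 (SE 1.71), and all 3 were negative with and without the 3 mice. Their summed level was 19.1 and 48.2 CPM in NT + Stroke mice 1 and 5, which were left out of neither fit. In the other NT + Stroke mice it was 2.57 to 4.42 CPM. The median of the summed level was 3.82 CPM in NT + Stroke and higher, at 7.21 CPM, in HT + Stroke. The 5 tested genes of red blood cells, which bear on residual blood, were negative with a median of -0.23 (-0.39 without the 3 mice), and the hemoglobin gene Hbb-bt had -0.66 (SE 0.67). Of 15 genes for iron and heme handling 9 were negative (5 without the 3 mice), with Heph, a copper-dependent ferroxidase, at -0.60 (SE 0.29).

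Of 12 genes of reactive astrocytes, 11 rose after stroke in NT mice and 9 in HT mice, and 11 had a negative interaction (median -0.55). Gfap had -0.71 (SE 0.53, adjusted P = 0.645), and Vim, which encodes the intermediate filament vimentin, had the smallest P of the list at -0.77 (SE 0.41, adjusted P = 0.518). The median of reactive astrocytes was -0.10 without HT + Sham mouse 6, and without HT + Stroke mice 1 and 6 as well it was 0.26, with 9 of 12 genes positive. Its sign thus changed without these libraries, but they were chosen by C3 and Gfap, so that a rise is built into the choice. Gfap was then at 0.09, with a 95% interval from -0.33 to 0.52. Genes of homeostatic astrocytes had a smaller and more precise difference. Of 10 genes 6 rose in NT mice and 0 in HT mice, 8 were negative (median -0.27), 4 of them at an unadjusted P under 0.05, and the intervals of all 10 lay within a 2-fold difference. The 0 of 10 in HT mice is close to the 4.76% of all genes that were higher there. Slc4a4, the sodium bicarbonate cotransporter of astrocytes, had -0.51 (SE 0.17, adjusted P = 0.322). With the olfactory bulb score held constant the median of homeostatic astrocytes was -0.01, and without the 3 mice it was -0.10 with 7 of 10 negative.

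All 11 genes of the fibrotic scar were negative with a median of -0.80, and 10 rose after stroke in NT mice against 5 in HT mice. Dcn, the proteoglycan decorin, was at 7.05 to 11.6 CPM in NT + Sham and 37.2 to 70.4 CPM in NT + Stroke. It was at 10.2 to 15.9 CPM in HT + Sham mice 1 to 5 and at 28.6 CPM in mouse 6, and at 14.7 to 77.2 CPM in HT + Stroke. The interaction of Dcn was -1.18 (SE 0.49, adjusted P = 0.428), and without HT + Sham mouse 6 and HT + Stroke mice 1 and 6 it was -0.53. The list of the fibrotic scar then had 8 of 11 negative genes and a median of -0.09. Of 10 genes for matrix metalloproteinases and inhibitors 8 were negative (median -0.70, and 5 with a median of -0.02 without the 3 mice), with Mmp19 at -1.20 (SE 0.56). Of 14 genes of brain endothelium 13 were negative (median -0.18, and 13 with a median of -0.11 without the 3 mice), with all 14 intervals within a 2-fold difference. Vwf, the von Willebrand factor of endothelium, was higher after stroke in NT mice (0.47, SE 0.12, adjusted P = 0.00542) and had 0.04 (SE 0.12, adjusted P = 0.888) in HT mice, with an interaction of -0.43 (SE 0.17, adjusted P = 0.387). Of 13 genes of pericytes and smooth muscle 10 were negative (median -0.07, and 5 with a median of 0.01 without the 3 mice), with the matrix protein gene Vtn at -0.43 (SE 0.15). The 9 tested genes of choroid plexus and leptomeninges ran from -0.70 to 1.54 (median -0.56, and -0.28 without the 3 mice), where Folr1, a folate receptor of the plexus, was highest but at only 0.0593 to 0.966 CPM.

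Lists of synapse genes and cortical neurons had positive medians, while those of interneurons and immediate early genes did not. Of 15 synapse genes 14 had a positive interaction (median 0.21), and the intervals of all 15 lay within a 2-fold difference. Of these, 10 were lower after stroke in NT mice and 1 in HT mice. Stx1a, the syntaxin of synaptic vesicle release, was at 409 to 451 CPM in NT + Sham and 260.0 to 368 CPM in NT + Stroke without overlap, and at 318 to 468 CPM in HT + Sham and 277 to 411 CPM in HT + Stroke with overlap. Its interaction was 0.38 (SE 0.13, adjusted P = 0.340). Of 12 cortical layer factors, which specify projection neurons, 10 were positive (median 0.22), and 5 were lower after stroke in NT mice against 0 in HT mice. Tbr1, a factor of deep-layer neurons, had medians of 139, 94.96, 118 and 96.95 CPM in NT + Sham, NT + Stroke, then HT + Sham and HT + Stroke and an interaction of 0.39 (SE 0.12, adjusted P = 0.320). The medians of Tbr1 in the stroke groups were close to each other, while the difference of HT + Sham from NT + Sham was -0.28 on the log2 scale, with overlap and not past the threshold. With the olfactory bulb score held constant the medians were 0.05 for synapse genes and 0.03 for cortical layer factors. The summed level of synapse genes was lowest of its group in HT + Sham mouse 6 (12910 CPM against 14130 to 15980 CPM) and highest in HT + Stroke mice 1 and 6 (15030 and 13730 CPM against 11020 to 13530 CPM). Without the 3 mice 11 of 15 synapse genes were positive with a median of 0.09, and 8 of 12 cortical layer factors with a median of 0.14.

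The interneuron list was split, with 6 of 12 genes positive and 6 negative (median -0.05), 3 and 4 of them at an unadjusted P under 0.05. The 12 genes ran from -1.93 to 0.80. Pvalb (0.80, SE 0.27) and Sst (0.60, SE 0.26), which each mark a cortical class, were positive, and were named after their values were seen. Gad1, an enzyme of GABA synthesis that olfactory bulb interneurons also express, was negative at -0.77 (SE 0.26, adjusted P = 0.322). Of 17 immediate early genes, which report recent neuronal activity, 11 were negative (median -0.16, and 13 with a median of -0.19 without the 3 mice). Npas4, an activity-dependent transcription factor, was at 8.01 to 25.02 CPM in NT + Sham, 13.9 to 20.7 CPM in NT + Stroke, 15.1 to 24.6 CPM in HT + Sham and 10.5 to 15.2 CPM in HT + Stroke. Its stroke effect was -0.70 (adjusted P = 0.0242) in HT mice and 0.11 (adjusted P = 0.721) in NT mice, with an interaction of -0.81 (SE 0.26, adjusted P = 0.322). All 12 genes of myelinating oligodendrocytes were positive but small (median 0.17, highest 0.56, and 12 with a median of 0.12 without the 3 mice), with 6 higher after stroke in NT mice and 7 in HT mice. Mog, a myelin surface protein gene, had 0.34 (SE 0.14, adjusted P = 0.428). Of 10 genes of oligodendrocyte precursors 6 were positive (median 0.01, and 5 without the 3 mice), and Bmp4, which encodes a growth factor of newly committed oligodendrocytes, was at 2.79 to 3.52 CPM in NT + Sham and 4.49 to 6.17 CPM in NT + Stroke, with an interaction of -0.82 (SE 0.22, adjusted P = 0.318).

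Genes of neighbouring regions had the largest list medians in both directions. All 8 genes of olfactory bulb neurons were negative, with a median of -1.99, and all 8 had an unadjusted P under 0.05. Tbx21, a transcription factor of mitral and tufted cells, was at 1.16 to 4.63 CPM in NT + Sham (median 3.11), 3.12 to 18.6 CPM (9.69) in NT + Stroke, 2.52 to 18.9 CPM (8.86) in HT + Sham and 0.740 to 9.65 CPM (3.41) in HT + Stroke. All pairs of groups overlapped. The interaction of Tbx21 was -2.81 (SE 0.84, adjusted P = 0.320). The median of olfactory bulb neurons was -1.71 without HT + Sham mouse 6 and -1.31 without HT + Stroke mice 1 and 6 as well. All 12 genes of striatal neurons were positive with a median of 0.63, and 0 had an unadjusted P under 0.05. Ppp1r1b, which encodes DARPP-32 of medium spiny neurons, had 0.85 (SE 0.56, adjusted P = 0.608). With the olfactory bulb score held constant the 12 genes of striatal neurons were all negative, with a median of -0.56, so their direction depends on that covariate, and without the 3 mice they were all positive with a median of 0.27.

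**Figure D5:**
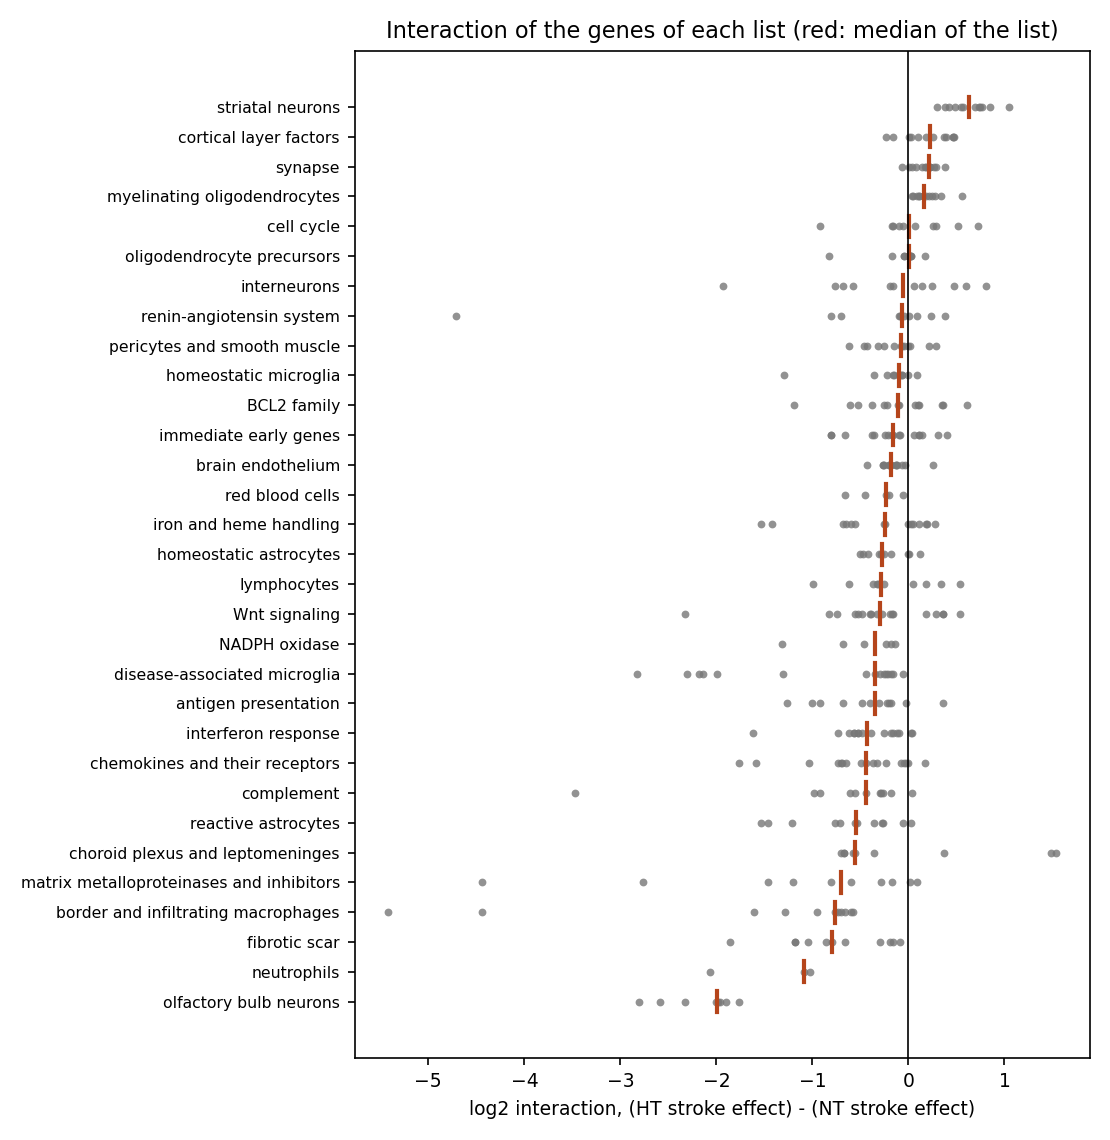
Interaction of each tested gene (points, log2 scale) in 31 lists, ordered by the list's median (red bar). Lists of olfactory bulb, fibroblast, macrophage and astrocyte genes lie left of 0 and those of synapse, cortical, myelin and striatal genes lie right of it, but no point passes an adjusted P under 0.05.

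The renin-angiotensin system, through which the infused peptide acts, had 10 of 12 genes tested, 4 positive and 6 negative (median -0.07, and 5 of each without the 3 mice). Agt, which encodes the precursor angiotensinogen made by astrocytes, had medians of 8.28, 13.9, 11.8 and 12.3 CPM in NT + Sham, NT + Stroke, then HT + Sham and HT + Stroke. Its stroke effect was 0.85 (SE 0.24, adjusted P = 0.0134) in NT mice and 0.05 (SE 0.24, adjusted P = 0.938) in HT mice, with HT + Sham mouse 6 highest of its group. The interaction of Agt was -0.80 (SE 0.34, adjusted P = 0.430). Ace, the converting enzyme, was higher by 0.49 in NT mice (SE 0.12, adjusted P = 0.00384) and by 0.50 in HT mice (SE 0.12, adjusted P = 0.0167), with an interaction of 0.01 and a 95% interval from -0.33 to 0.35. Agtr1a, the main type 1 receptor, had 0.38 (SE 0.50) and Agtr2, the type 2 receptor, had -0.70 (SE 0.58), both at most 1.09 CPM in any mouse. Cma1, a mast cell chymase that also forms angiotensin II, had the smallest P of the list. It had 1 read in all NT + Sham libraries together, and was at 0.150 to 1.41 CPM in NT + Stroke, 0.0535 to 0.679 CPM in HT + Sham and 0.114 to 1.13 CPM in HT + Stroke. The fitted interaction of Cma1 was -4.71 (SE 1.24, adjusted P = 0.318), which depends on the prior count because NT + Sham was under the floor of 3 reads.

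For genes that the study itself examined, no interaction passed either. Of 13 genes of its RT-PCR panel for glial activation, 11 could be tested, all 11 with a negative interaction (median -0.34). Serping1, the C1 inhibitor, had -0.92 (SE 0.54), Gbp2, an interferon-induced GTPase, had -0.57 (SE 0.37), and Stat3, a cytokine-activated transcription factor, had -0.29 (SE 0.13, adjusted P = 0.457). The transglutaminase gene Tgm1 had -1.16 (SE 1.23), the cytokine gene Clcf1 -0.28 (SE 0.29), the endotoxin coreceptor gene Cd14 -0.30 (SE 0.40), the immunoproteasome gene Psmb8 -0.30 (SE 0.41) and the proteoglycan gene Srgn -0.34 (SE 0.26). Fam19a3 had -2.13 (SE 0.79, adjusted P = 0.369), Nos2, the inducible nitric oxide synthase, -0.34 (SE 0.56) and Il4 -0.09 (SE 0.15). Of the 11, 5 were positive and 6 negative (median -0.02) without HT + Sham mouse 6 and HT + Stroke mice 1 and 6. Tnf and Arg1 had too few reads, with 43 and 53 reads of Tnf, and 24 and 33 of Arg1, over all NT + Stroke and HT + Stroke libraries.

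Of 16 genes taken from those it names for HT + Stroke vs NT + Stroke, 6 could be tested and all 6 were negative (median -1.74). These genes were chosen by the study on these mice and are no independent evidence of a direction, and their common sign follows from which of them passed the filter on reads. In a fit without that filter 8 of the other 10 were positive, among them Pigr at 5.68 and Grpr at 3.85, though folds from so few reads depend on the prior count. Tbx21, which is also among the olfactory bulb genes above, was the lowest of them. Shisa3, an inhibitor of Wnt receptors, was at 2.54 to 9.82 CPM in NT + Sham, 8.16 to 35.02 CPM in NT + Stroke, 7.23 to 32.8 CPM in HT + Sham and 1.14 to 16.6 CPM in HT + Stroke. The interaction of Shisa3 was -2.33 (SE 0.74, adjusted P = 0.322). Nppa, the atrial natriuretic peptide gene, had -2.28 (SE 0.83, adjusted P = 0.358), Bcl2l15 had -1.19 (SE 0.61), and Tgtp1, an interferon-induced GTPase, had -0.48 (SE 0.56). With the olfactory bulb score held constant 4 of 6 were negative with a median of -0.31, and without HT + Sham mouse 6 and HT + Stroke mice 1 and 6 all 6 were negative with a median of -1.36. Reads of the other 10 were few. Over all NT + Sham, NT + Stroke, then HT + Sham and HT + Stroke libraries there were 1, 56, 4 and 4 reads of Prg2, an eosinophil granule protein, 15, 1, 3 and 22 of Pigr, 16, 1, 5 and 8 of Grpr, 41, 18, 37 and 49 of Mir132 and 9, 8, 6 and 29 of Hsh2d. Bcl2l14 had 1, 2, 4 and 20 reads, and Gucy2d, Mup20, Pin1rt1 and Pvrig had at most 11 in any group. In the BCL2 family, 6 of 14 tested genes were positive and 8 negative (8 and 6 without the 3 mice), and Hrk, which promotes apoptosis of neurons, had 0.36 (SE 0.12, adjusted P = 0.322). In Wnt signaling 13 of 18 were negative (median -0.30, and 13 with a median of -0.19 without the 3 mice), and in the cell cycle 5 of 10 (3 without the 3 mice), with Cenpf at -0.92 (SE 0.52).

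The absence of called genes does not mean that the stroke effects were equal. The median SE of the interaction was 0.16 on the log2 scale (quartiles 0.12 and 0.31). The 95% interval lay within a 2-fold difference for 13494 genes (76.64%) and within 1.5-fold for 9860 (56%), and within 2-fold for 3457 (76.13%) of the genes called for the average stroke effect. For the 170 genes with an average stroke effect above 2 on the log2 scale the error was larger, with a median SE of 0.95, and 0 of them had an interval within 2-fold. For these genes, which include C3, Cd5l, Lgals3 and Mmp12, the median interaction was -0.88 and 146 were negative. A difference of 2-fold in their stroke effect was thus not excluded for any of them with 6 mice in each group.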

How the data were processed

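The authors counted reads (featureCounts 1.5.0-p3, per the submitters' processing notes) on Ensembl mouse genes after poly(A) sequencing, and deposited counts beside FPKM in 4 tables. The aligner is not given in the sources used here. Gene positions in the tables were those of GENCODE M21 on GRCm38 for 97.55% of genes found there. The counts as deposited are not normalized. The deposited FPKM values are counts per length and library size. The authors' own log2 fold changes and P values were not used, nor were 56 columns of normalized counts and group means. Tables were joined by gene ID, with 0 for a missing gene. The filter was edgeR's filterByExpr at its defaults (a minimum count of 10 and a minimum total of 15). Counts were scaled by TMM and tested in R 4.3.3 with edgeR 4.0.16 (robust quasi-likelihood, two-sided) over all 24 libraries in 1 fit, with Benjamini-Hochberg adjustment over all genes. SE is the fold change over the root of F. The slope is by total least squares. DESeq2 1.42.0, limma 3.58.1 on log2(FPKM + 1) and log2(FPKM + 0.1), other scalings and filters, covariates, a replicate block and libraries left out were alternatives. The script was tested on simulated data.

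Named genes are those with an adjusted P under 0.05 for the interaction (none), the 8 with the smallest P in each direction at an average log2 CPM above 1, the 6 highest and 6 lowest by average stroke effect, the study's own genes, and the gene with the smallest P of each list. Pvalb, Sst, Gfap, Agt, Ace, Agtr1a and the genes of the closing observations were chosen after their values were seen. Some genes that the rule names are not reported here. The comparison and the lists were chosen with earlier results of these data known. No batch is given, and nothing but the column numbers says that libraries are separate mice, so that P values measure the spread between libraries.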

Additional observations from a re-analysis of the deposited data

Results flagged for a closer look

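Of 136 groups of 6 values examined (each gene of the sets with the smallest P or the largest stroke effect, and summed lists, in each group), 14 held a mouse that stood apart from the other 5 by Dixon's criterion, a gap to the nearest mouse of more than the critical share of the range. Chance gives about 1 in 20 such groups. Most were in 1 mouse, HT + Sham mouse 6, which was high for genes that are expressed after stroke. It had 13.84 CPM of Cd5l, 10.53 CPM of C3, 1.654 CPM of Mmp3, 3.309 CPM of Mmp12, 3.509 CPM of Atp6v0d2 and 8.823 CPM of Lcn2. Its summed level of reactive astrocytes was 790.4 CPM and that of border and infiltrating macrophages 42.21 CPM, and it also had the highest Coch of its group (22.81 CPM). The same mouse had the most olfactory bulb RNA and the least striatal RNA of all mice, and the part of either in the interaction was not tested beyond the values without it.

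In NT + Sham, mouse 2 stood above its group for Cd5l (0.3811 CPM) and Mmp3 (0.2178 CPM), both from few reads, and mouse 3 for Gm26881 (5.201 CPM). In HT + Stroke, mouse 5 was highest for Syt6 (49.07 CPM) and mouse 6 for Tmem232 (3.193 CPM).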

How the results depend on the processing

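Fits chosen after the data were seen left out HT + Sham mouse 6 with HT + Stroke mice 1 and 6, or held only the olfactory bulb score constant. DESeq2 called 22 genes for the interaction. At an unadjusted P under 0.05 there were 2998 genes without a filter, 2980 by limma voom with library weights, 316 with olfactory bulb and striatal scores held constant, 363 with the first alone, 688 without the 3 mice, and 1220 to 3139 with 1 library left out. The stroke effect in NT mice was called for 0 genes with both scores held constant and 2402 with the olfactory bulb score. In HT mice it was called for 714 genes without a filter, 732 by limma on log2(FPKM + 1), 407 by voom, 119 with both scores, 2545 without the 3 mice and 338 to 1635 with 1 library left out. The average stroke effect was called for 1107 genes with both scores, and the slope was 1.036 without the 3 mice. The median SE of the interaction was 0.1645 with all 24 libraries and no score, and 0.1751 without the 3 mice. It was 0.1885 with the olfactory bulb score and 0.1963 with both scores. The remaining 319 counts and slopes stayed within 1.5 times their value.

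Signs of named genes changed in 56 combinations of a gene and a fit, all with an adjusted P above 0.05. Without the 3 mice the interaction was 0.0545 for Mmp3, 1.43 for Atp6v0d2, 0.57 for Lcn2, -0.32 for C1ql3, -0.13 for Tmem232, 0.22 for Psmb8, 0.25 for Cd14, 0.076 for Clcf1, 0.44 for Tgm1 and 0.13 for Nos2. Without HT + Sham mouse 6 and HT + Stroke mouse 3 it was 0.26 for Atp6v0d2 and -0.22 for Nmbr. With both scores it was -0.32 for Grp, -0.66 for C1ql3, -0.22 for Tmem232, 0.27 for Psmb8, 0.060 for Srgn, 0.21 for Cd14, 0.22 for Clcf1, 0.24 for Nos2, 0.18 for Fam19a3, 0.32 for Nppa, 0.022 for Ifit2 and 2.45 for Ngp. With the olfactory bulb score alone it was -0.26 for Grp, -0.33 for C1ql3, -0.16 for Tmem232, 0.21 for Psmb8, 0.089 for Cd14, 0.15 for Clcf1, 0.054 for Nos2, 0.29 for Fam19a3, 0.14 for Tgtp1, 0.25 for Nppa, 0.0605 for Ifit2, 1.48 for Ngp, 0.0072 for Gad1 and -0.35 for Ppp1r1b. For C1ql3 and Nmbr limma gave -0.035 and -0.14 on log2(FPKM + 0.1), -0.0053 and -0.039 on log2(FPKM + 1), and -0.18 and -0.13 by voom, which gave 0.21 for Hbb-bt. With 1 library left out the interaction ran from -4.88 to 0.88 for Atp6v0d2, from -1.99 to 0.0117 for Lcn2, from -0.14 to 0.20 for C1ql3, from -0.16 to 0.19 for Nmbr and from -0.86 to 0.040 for Hbb-bt. The causes were not tested.

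With the replicate number as a block, 1796 genes had an unadjusted P under 0.05 for the interaction, 0 an adjusted P under 0.05, and the stroke effect was called for 3672 genes in NT and 879 in HT mice. Mice with the same number did not deviate together (36 pairs of libraries, median r = 0.053, 14 above 0.1), so the numbers were not taken as pairs. Genes with few reads, such as Cd5l and Cma1 in sham mice, limit the folds by depth.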

Other observations

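Genes described here were chosen after their values were seen. Among genes that DESeq2 called for the interaction were several transcription factors. Pbx3 had medians of 19.9 CPM in NT + Sham, 34.0 CPM in NT + Stroke, 30.2 CPM in HT + Sham and 21.8 CPM in HT + Stroke, with an interaction of -1.52 (adjusted P = 0.285 by edgeR and 0.0367 by DESeq2). Zic2 had medians of 14.7, 25.8, 18.4 and 18.7 CPM in the same order, and an interaction of -0.80 (adjusted P = 0.262 by edgeR and 0.0388 by DESeq2), and the medians of its HT groups were close to each other. Sp9 had an interaction of -1.28 (0.0388 by DESeq2) and Dlx5 of -1.09 (0.0497 by DESeq2), and Meis2, at -0.71, was not called. HT + Sham mouse 6 was the highest of its group for these 5 genes. The medians of Pbx3, Sp9, Dlx5 and Meis2 were higher in NT + Stroke and HT + Sham than in the other groups. A negative interaction favours this pattern, which the olfactory bulb markers above also had, and a link was not tested. Interactions of these 5 genes with the olfactory bulb score held constant are not given here.

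For some genes with a large fitted interaction 1 mouse was far above all others. HT + Stroke mouse 6 held genes of skeletal muscle, with 30.1 CPM of the calcium pump Atp2a1 against at most 0.801 CPM in any other mouse, 18.1 CPM of the myosin Myh1 against at most 1.003 CPM, and 18.9 CPM of the troponin Tnni2 against at most 1.66 CPM. Their interactions were 3.44, 3.07 and 2.73. HT + Stroke mouse 3 held 49.6 CPM of the mucin Muc5b, against at most 2.03 CPM in any other mouse, and 105.2 CPM of Bpifb4, against at most 5.17 CPM, both known from olfactory and airway epithelium, with interactions of 3.56 and 2.74.

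Immunoglobulin genes were uneven between mice. Iglv1 was at 0 in every NT + Sham mouse, at 0.0499 to 6.92 CPM in NT + Stroke, at 0 to 2.14 CPM in HT + Sham and at 0 to 1.02 CPM in HT + Stroke. Igkc, a light chain gene, was at 3.85 to 46.6 CPM in NT + Stroke and 0.285 to 54.2 CPM in HT + Stroke, with an interaction of -1.45 (SE 1.54), and Jchain, which joins secreted immunoglobulins, had -0.31.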
